A study of Homo sapiens with 4 samples.

Results

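The genes examined were 10 regulators of apoptosis from the BCL2 family, chosen by gene symbol: 4 that protect the cell (BCL2, BCL2L1, BCL2L2 and MCL1) and 6 that promote its death (BCL2L11, BAX, BAK1, BID, BBC3 and PMAIP1). Every array probe that carried 1 of these symbols was taken, which gave 15 probes, 5 for the pro-survival genes and 10 for the pro-death genes. Each of the 15 exceeded background clearly on each of the 4 arrays, and all of them were among the 20328 probes tested, which carried 15454 gene names. Expression was measured in GIST-T1 cells, a human line established from a tumor of the gastrointestinal stroma (GIST), 48 h after nucleofection with 100 pmol of either a miR-335 mimic (2 arrays) or a negative control miRNA mimic (2 arrays). A mimic is a synthetic RNA that acts in the place of the mature microRNA. The groups shared the cell line, the transfection method and the RNA dose, and 100 ng of total RNA per sample was labeled with 1 dye for a human Agilent array. The labels number the replicates within each group but do not say that they came from separate cultures, so the spread between these samples that enters the p-values may be technical. The title and the transfection label of both mimic samples name miR-335, whereas a line of their description names miR-34a.

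BCL2 family proteins set whether the outer membrane of the mitochondrion stays closed. BAX and BAK1 form the pores that release cytochrome c, the pro-survival proteins hold them in check, and BH3-only proteins such as BIM (BCL2L11), PUMA (BBC3), NOXA (PMAIP1) and BID either neutralize the pro-survival proteins or engage the pore formers. In gastrointestinal stromal tumor cells, which depend on the receptor tyrosine kinase KIT, BIM is known for its part in the death of cells treated with KIT inhibitors.

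The mature strands of miR-335 are printed because the seed, in capitals, is the stretch that a microRNA pairs with its targets. They are RefSeq sequences of assembly GRCh38.p14, from the plus strand of chromosome 7, at chr7:130496126-130496148 (5p) and chr7:130496162-130496183 (3p). Which strand or strands the mimic was made to deliver was not given in the sources used here.
hsa-miR-335-5p: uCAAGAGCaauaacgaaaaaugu
hsa-miR-335-3p: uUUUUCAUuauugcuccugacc
The 2 seeds differ. The complement of bases 2 to 8 was sought in the 60-base probe sequences, as GCTCTTG for the 5p strand and ATGAAAA for the 3p strand, in the sense orientation of the transcript only. The 5p site stood in 0.437% of the 50599 probes and the 3p site in 1.22%. Of the 15 probes of the BCL2 family, 0 held the 5p site and 0 held the 3p site. A probe covers a small stretch of its transcript, so this says only that these letters are not in the probes. Across the array, 6 of the 100 tested probes with the miR-335-5p site were called lower in the mimic samples. So were 3 of 214 with the miR-335-3p site and 1 of 94 with the site of miR-34a-5p. In the same order, 1, 4 and 3 were called higher. Of all tested probes, 1.15% were called lower and 1.47% higher.

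The 4 arrays were alike in overall signal. Between 40.3% and 41.9% of the probes on an array were well above background, 0 spots were saturated, and the 75th percentile of the signal ranged from 178.8 to 189.7 intensity units. All arrays lay on 1 slide and were scanned together, with the control samples at positions 1 and 2 and the mimic samples at positions 3 and 4, so that position and group cannot be told apart. Markers of the labelled tumor type were present: all probes of KIT, ANO1, ETV1, PRKCQ and CD34, which mark gastrointestinal stromal tumors, were well above background on every array. The probes of MYH11, CNN1, KRT20, CDH1, PECAM1 and PTPRC, which mark smooth muscle, epithelium, endothelium or leukocytes, were not well above background on any array, CDH5 passed on some arrays only, and EPCAM, DES and ACTA2 passed on all 4. Values below are normalized log2 signals, the log2 processed intensity minus the 75th percentile of the array. A level of 0 is therefore the level of the probe at that percentile, and a change is the mean of the mimic samples minus the mean of the control samples. Levels were compared only within a probe. An exact permutation test of 2 arrays against 2 cannot go below a p of 0.333, so single probes were tested only in the limma fit across all tested probes, with p-values adjusted by the Benjamini-Hochberg method. The SE values below come from that fit too, in which the variance of a probe is drawn toward that of all tested probes. The number of arrays limits the precision of every value.

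BCL2 was the only gene of the 10 to pass the adjusted threshold of 0.05 in that fit. BCL2 fell by 0.45 on the log2 scale, to 27.0% below the control level, and it did so on both of its probes. None of the other 9 genes passed the threshold in either direction. Of the 15 probes, 2 were called lower and 0 higher by limma, beside 1.15% called lower and 1.47% called higher among all tested probes. At an unadjusted p under 0.05 there were 4 probes, all of them lower (both BCL2 probes and 1 probe each of BCL2L11 and PMAIP1), so that 0 probes were higher at that level too. Of all tested probes, 25.3% were under 0.05 without adjustment, 13.7% lower and 11.7% higher, so 4 of 15 is a share near that of the array. None of the 15 alternative settings tried called any of these probes higher. Under several of them few or no probes of the whole array were called higher, so those settings could hardly show a rise. Differences beyond 1.5-fold were found for 0 of the 15 probes, whereas 1.47% of all tested probes did so downward and 2.43% upward.

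**Figure D1:**
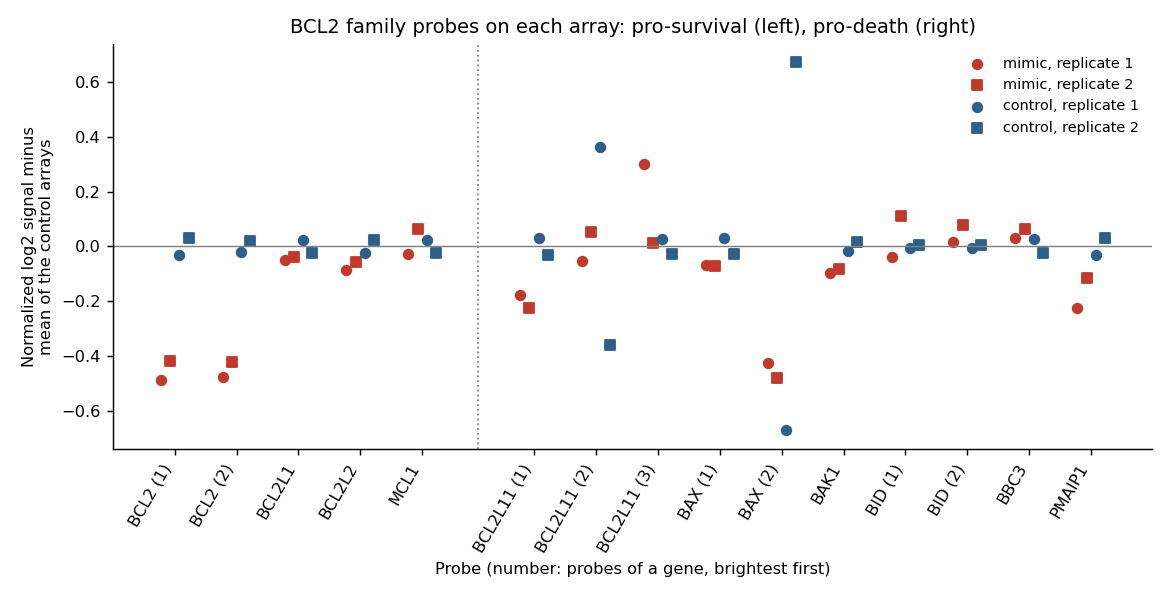
Normalized log2 signal of the 15 BCL2 family probes (horizontal axis) on each array, minus the mean of the control arrays (vertical axis). Red points are mimic samples, blue points are control samples, and circles and squares are replicates 1 and 2. Both BCL2 probes lie about 0.45 below the control mean on both mimic arrays, and the second BAX probe has control samples that differ by 1.34.

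BCL2 itself, the founding pro-survival protein, was read by 2 probes far apart in the gene. The brighter was designed on the record of transcript variant alpha (chr18:60790723-60790782, minus strand, hg19) and was spotted 10 times per array. Its level was 0.77 and 0.84 in the mimic samples and 1.23 and 1.29 in the control samples. The groups did not overlap, and replicates of a group were much closer to each other than to the other group. The change was -0.45 ± 0.05 (SE, n = 2 per group), with a limma adjusted p of 0.0487, and the 4 differences between a mimic and a control array ran from -0.52 to -0.39.

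The dimmer BCL2 probe was designed on the record of transcript variant beta (chr18:60985401-60985460, minus strand), 195 kb from the first. It read -0.04 and 0.01 in the mimic samples against 0.41 and 0.46 in the control samples, which again did not overlap. Its change was -0.45 ± 0.04 (SE, n = 2 per group; limma adjusted p = 0.0428), a level 26.8% below control, with array differences from -0.50 to -0.40. The probes thus gave the same size of difference from separate stretches of the gene. Changes of this size or lower were found in 2.81% of all tested probes for the brighter probe and in 2.85% for the dimmer. Both calls were close to the threshold and neither held when any 1 of the 4 arrays was left out: without an array, the change of the brighter probe lay between -0.49 and -0.42 with a limma adjusted p between 0.166 and 0.198, and that of the dimmer between -0.48 and -0.42 with 0.161 to 0.196. No probe of the whole array was called lower in those fits. The brightest probes of all 5 stromal tumor markers were below control (median change -0.10, beside -0.01 over all tested probes), and 0 of them were called. A dimmer ANO1 probe (0.47, limma adjusted p = 0.0533) and a dimmer ETV1 probe (0.01) were above control. The other dimmer probes of ETV1, KIT and CD34 were below it. Of the smooth muscle markers ACTA2 fell by 0.50 (limma adjusted p = 0.0392) and DES was at -0.25. EPCAM, the tested epithelial marker, was at -0.89 ± 0.42 (limma adjusted p = 0.287) on a dim probe whose control samples read -0.54 and -1.59. The endothelial and leukocyte markers had no tested probe. The part of these markers in the BCL2 result was not tested.

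The repeated spots show how far the brighter BCL2 probe stood from measurement scatter within an array. Over the 19 usable spots of the control samples the level ran from 1.12 to 1.38, with a median of 1.26. Over the 19 usable spots of the mimic samples it ran from 0.66 to 0.96, with a median of 0.81, so that no mimic spot reached the lowest control spot. The same was not seen for the other 2 probes spotted 10 times. The spots of BCL2L1 ran from 0.17 to 0.49 in control and from 0.14 to 0.50 in mimic samples, and those of BAX from 3.38 to 3.63 and from 3.29 to 3.60. Spots of 1 array share its RNA and are not replicates of a condition, so they carry no test.

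**Figure D2:**
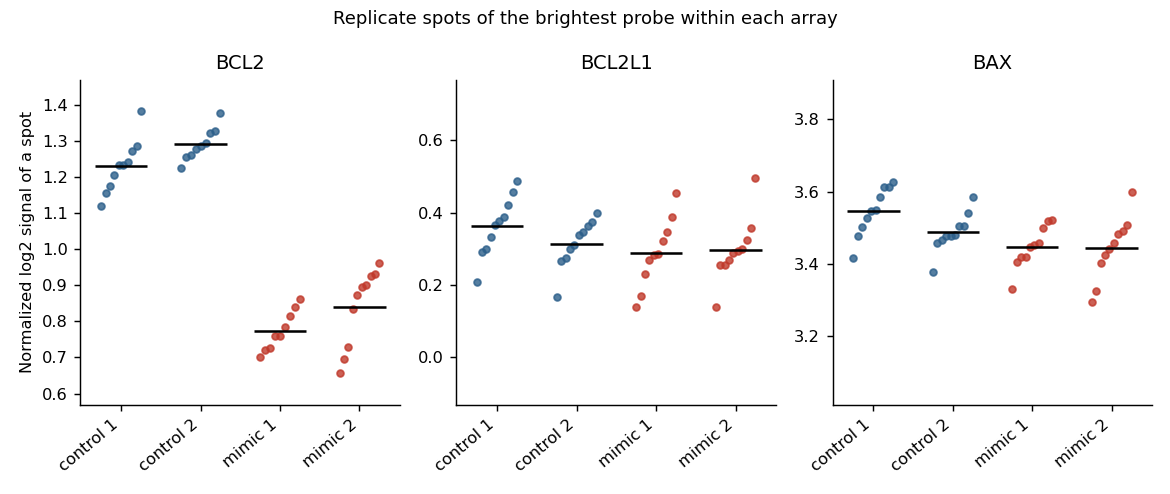
Normalized log2 signal of each usable spot (vertical axis) of the repeated BCL2, BCL2L1 and BAX probes on the 4 arrays (horizontal axis), with a black line at the array mean. BCL2 spots of the mimic arrays, at most 0.96, all lie below those of the control arrays, at least 1.12, while the spots of BCL2L1 and BAX overlap between groups.

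The other pro-survival genes differed little. BCL2L1, which encodes BCL-XL, read 0.29 and 0.30 in mimic and 0.36 and 0.31 in control samples at chr20:30253324-30253383. The mimic samples lay just below both control samples, by less than the 2 control samples lay apart, and the change was -0.04 ± 0.04 (SE, n = 2 per group; limma adjusted p = 0.534). BCL2L2, which encodes BCL-w, had levels of 3.16 and 3.19 against 3.22 and 3.27 at chr14:23780660-23780719. Again the groups did not overlap, but the change of -0.07 ± 0.04 did not pass the test (limma adjusted p = 0.357). Whether that probe also reads the neighbouring read-through transcript BCL2L2-PABPN1 was not analysed here. MCL1, a short-lived protein that binds BAK1 and the BH3-only proteins, gave 2.62 and 2.71 in mimic and 2.67 and 2.62 in control samples at chr1:150547622-150547681. Its groups overlapped, and the change of 0.02 ± 0.05 (limma adjusted p = 0.858) turned to -0.17 when the arrays were scaled to spike-in RNA.

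Among the pro-death genes the BH3-only gene BCL2L11 differed most in its brightest probe. BCL2L11 encodes BIM, a direct binder of BCL2, and had 3 probes along chromosome 2. The brightest (chr2:111886352-111886411) read 0.55 and 0.50 in mimic and 0.76 and 0.70 in control samples. These groups did not overlap, and the change was -0.20 ± 0.05 (SE, n = 2 per group), with an unadjusted p of 0.015 and a limma adjusted p of 0.119. The other two probes did not show the same difference. At chr2:111925892-111925951 the levels were -1.72 and -1.61 in mimic and -1.30 and -2.02 in control samples, for a change of 0.00 ± 0.27. At chr2:111878705-111878764 they were -2.07 and -2.37 against -2.35 and -2.40, for a change of 0.16 ± 0.12, which was -0.03 when scaled to spike-in RNA. Groups overlapped on both of these dim probes, where replicates differed by up to 0.72, and the limma adjusted p was 0.997 and 0.458.

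PMAIP1, which encodes NOXA, an inhibitor of MCL1, had levels of 1.14 and 1.25 in mimic and 1.33 and 1.39 in control samples (chr18:57570691-57570750). The mimic samples were below both control samples, with a change of -0.17 ± 0.06 (unadjusted p = 0.048, limma adjusted p = 0.194). BBC3, which encodes PUMA, gave 3.30 and 3.34 against 3.30 and 3.25 (chr19:47724174-47724233), with the mimic samples above both control samples by a narrow margin. Its change was 0.05 ± 0.04 (limma adjusted p = 0.530), and -0.14 when scaled to spike-in RNA. BID, which links death receptors to the mitochondrion once caspase-8 has cut it, was read by 2 neighbouring probes on chromosome 22. The brighter (chr22:18218265-18218324) gave 3.68 and 3.84 in mimic and 3.72 and 3.73 in control samples, a change of 0.04 ± 0.07, which was -0.15 when scaled to spike-in RNA, and the other (chr22:18218182-18218241) gave 3.32 and 3.39 against 3.30 and 3.31, a change of 0.05 ± 0.04, which was -0.14 on that scale. The first overlapped between groups and the other did not, and the limma adjusted p was 0.763 and 0.543.

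The pore-forming genes did not pass the test either. BAX was measured at 3.45 and 3.44 in mimic and 3.55 and 3.49 in control samples by its brighter probe (chr19:49464904-49464963). The change was -0.07 ± 0.04 (limma adjusted p = 0.367), and the array means did not overlap although the single spots did. The dimmer BAX probe, designed on the record of transcript variant beta (chr19:49464454-49464513), read -1.53 and -1.58 in mimic samples but -1.77 and -0.43 in control samples. Its change of -0.45 ± 0.50 equalled that of BCL2, but both mimic samples lay between the control samples, and the limma adjusted p was 0.608. BAK1 gave 1.90 and 1.92 against 1.98 and 2.02 (chr6:33540585-33540644), groups that did not overlap, for a change of -0.09 ± 0.04 (limma adjusted p = 0.251).

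Set side by side, pro-survival and pro-death genes had alike medians. With 1 probe per gene, the brightest, the median change was -0.06 over the 4 pro-survival genes and -0.08 over the 6 pro-death genes, beside -0.01 over all tested probes. The pro-survival median hid a range from -0.45 (BCL2) to 0.02 (MCL1), and the pro-death median a range from -0.20 (BCL2L11) to 0.05 (BBC3). Mimic samples were below both control samples on 8 of the 15 probes and above both on 2, and the groups overlapped on 5. Such separation was common on the array, where 32.5% of the tested probes were lower and 27.1% higher in both mimic samples than in both control samples.

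The reference level to which the arrays were scaled set the sign of the small changes. Scaled to 7 spike-in RNA probes instead of the 75th percentile, the median of all tested probes moved to -0.20, and all 10 genes had a change below 0. The change was then -0.64 for BCL2 and between -0.39 and -0.14 for the other 9 genes, with medians of -0.24 for the pro-survival and -0.27 for the pro-death genes. On that scale 8 of the 15 probes passed the limma threshold as lower, among 44.2% of all tested probes: both of BCL2 and 1 each of BCL2L1, BCL2L2, BCL2L11, BAX, BAK1 and PMAIP1. This scaling shifted each array by a constant, so the order of the genes and their distances from the median could not change. As with the 75th percentile, BCL2 was the gene furthest below the median, and MCL1, BID and BBC3 lay above it. Quantile normalization and scaling to the detected probes left each of the 10 brightest probes on the same side of 0.

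**Figure D3:**
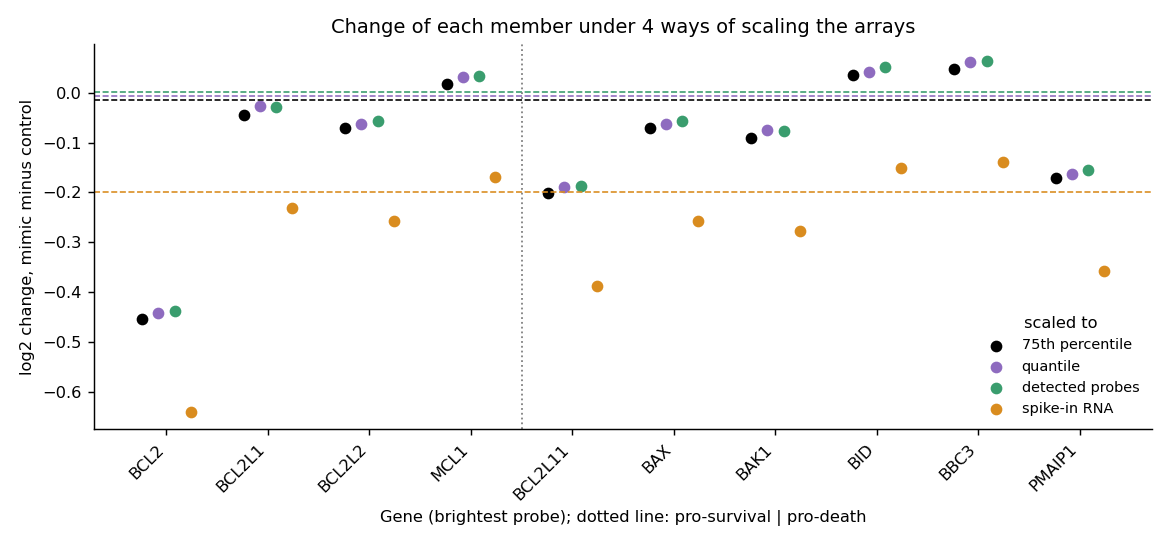
Change in log2 signal, mimic minus control (vertical axis), of the brightest probe of each of the 10 genes (horizontal axis) under 4 ways of scaling the arrays (colors). Dashed lines mark the median of all tested probes under each scaling. Spike-in scaling puts all 10 genes below 0 and that median at -0.20, and BCL2 is the lowest gene under all 4. The scalings other than quantile normalization differ only by a constant per array, so they cannot change the order of the genes.

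The genes that act around the family were described from 7 lists holding 44 genes, all with probes on the array, of which 36 had a tested probe. By the brightest probe, 0 genes were called lower and 1 higher by limma, beside 1.15% and 1.47% of all tested probes. At an unadjusted p under 0.05 were 11 of the 36, beside 25.3% of all tested probes. The median change was -0.03, and 20 genes were below 0 and 16 above. Of these 36 probes, 16 were lower and 10 higher without overlap between groups, beside the 32.5% and 27.1% given above. The genes without a tested probe were BCL2L10, BIK, BOK, APAF1, BIRC3, TNFRSF10A, TP73 and TRIM17. Of these, APAF1, the scaffold of the apoptosome, was well above background on 1 array and the other 7 on no array.

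Downstream of the pore, 0 of the 7 tested genes of caspase activation passed the limma test in either direction, with 1 gene at an unadjusted p under 0.05 (25.3% of all tested probes). That gene was CASP9, the caspase that the apoptosome activates, with levels of 1.65 and 1.69 in mimic and 1.86 and 1.86 in control samples. The groups did not overlap, and the change was -0.19 ± 0.04 (limma adjusted p = 0.104). CASP6, an effector caspase, differed by 0.07 ± 0.04 (limma adjusted p = 0.311; -0.11 when scaled to spike-in RNA), and CYCS, which encodes cytochrome c itself, by 0.01 ± 0.04 by its brightest probe (limma adjusted p = 0.865; -0.17 when scaled to spike-in RNA). The median change of the 7 genes was 0.01.

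Among the other pro-death relatives, 1 of 5 tested genes was called higher by limma and 0 lower, beside 1.47% and 1.15% of all tested probes. BNIP3L, which encodes NIX, a protein of the outer mitochondrial membrane known for its part in mitophagy, read 3.91 and 3.92 in mimic and 3.13 and 3.13 in control samples by its brightest probe, a change of 0.78 ± 0.04 (limma adjusted p = 0.0314). The same was not measured by the other probes, which were designed on a RefSeq record of the gene, whereas the brightest was designed on another record. The other probes differed by -0.14 ± 0.06 and -0.04 ± 0.08, with limma adjusted p values of 0.284 and 0.776. With any 1 array left out the difference of the brightest probe stayed between 0.78 and 0.79, while the limma adjusted p lay between 0.134 and 0.189. Without an array, 0 probes of the whole array were called lower and 0 to 8 higher.

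The remaining 5 lists held no call by limma. BCL2A1, the tested gene of the other pro-survival relatives, differed by -0.15 ± 0.04 (limma adjusted p = 0.146) by 1 probe. The other BCL2A1 probe was well above background on no array. Of the 9 tested genes of the death receptor arm, 4 had an unadjusted p under 0.05, and so did 25.3% of all tested probes. They were the receptors FAS at -0.29 ± 0.04 and TNFRSF10B at 0.11 ± 0.04 (-0.08 when scaled to spike-in RNA), the initiator CASP10 and CFLAR, an inhibitor of caspase-8. CASP10 was at 0.19 ± 0.05 (0.005 when scaled to spike-in RNA), and its other probes were well above background on no array. The limma adjusted p was 0.190 for TNFRSF10B and 0.124 for CASP10. CFLAR was at 0.46 ± 0.12 by its brightest probe (limma adjusted p = 0.139) but at -0.05 and -0.04 by its other two tested probes. All 3 FAS probes were below 0, at -0.29, -0.26 and -0.17, with limma adjusted p values of 0.0638, 0.0756 and 0.225. Of the 7 tested regulators, 4 had an unadjusted p under 0.05, again beside 25.3% of all tested probes, with FOXO1, a transcription factor that can drive BCL2L11, at -0.30 ± 0.04 and FBXW7, which targets MCL1 for degradation, at -0.32 ± 0.05 (limma adjusted p = 0.0537 and 0.0705). None of the 3 inhibitors of apoptosis or the 4 outer membrane partners was under 0.05 without adjustment. BIRC6 differed by 0.26 ± 0.23 and XIAP by -0.06 ± 0.06 (limma adjusted p = 0.521 and 0.575), with a dimmer XIAP probe at -0.34 ± 0.15 (limma adjusted p = 0.265), while the channel genes VDAC1 and VDAC3 both differed by 0.10 ± 0.04 (limma adjusted p = 0.234 and 0.265) and lay below 0 when scaled to spike-in RNA. Of the 70 probes of the listed genes, 0 held the miR-335-5p site and 2 the 3p site, a dimmer BNIP3L probe and the brightest CFLAR probe.

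**Figure D4:**
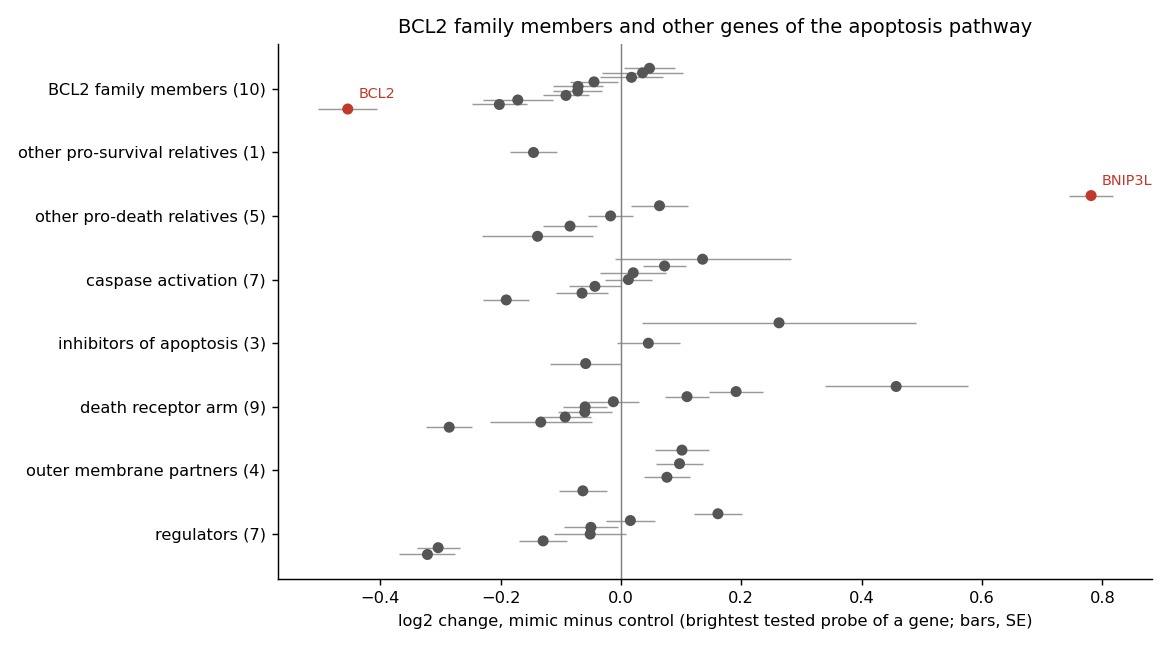
Change in log2 signal, mimic minus control (horizontal axis), of the brightest tested probe of each BCL2 family gene and of each gene in the 7 other lists (rows, with the number of genes); bars are standard errors. Red points passed the limma threshold: BCL2 at -0.45 and BNIP3L at 0.78.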

How the data were processed

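The authors deposited scanner files with spot intensity values from Agilent Feature Extraction 10.7.3.1, per the file headers; the processed intensity used here was background-subtracted and detrended within each array, not normalized between arrays. A deposited table of the same intensity values, rounded, served as an alternative; 0 of its columns matched no sample. Outlier spots (356 to 395 per array) were left out, spots of a probe were averaged, and log2 values were centred on the 75th percentile of the array. Probes that passed the well-above-background flag on the 2 arrays of either group were tested (20328 of 50599) with limma 3.58.1 in R 4.3.3 (lmFit, eBayes, no covariates), a step tested on simulated data. The genes and lists were chosen with earlier results of these data known. All 10 genes were named with every probe; from each list, the genes that passed or, with none, the 2 with the smallest p, were named, and TNFRSF10B, CFLAR, CYCS and the genes not tested were added after their values were seen. Some genes of the lists are not reported here and were left out of the counts over the lists. Symbols and hg19 positions were taken from the files, and all 15 accessions matched RefSeq (GRCh38.p14). Alternatives covered background correction (normexp, offset 50), scaling, probe filter, variance model, replicate block, t-test and leaving out each array. Sites in untranslated regions were not analysed here. The labels do not say whether replicate numbers pair the samples. The replicate differences of the 2 groups were nearly uncorrelated across probes (correlation 0.03). Figures were drawn with matplotlib 3.10.9.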

Additional observations from a re-analysis of the deposited data

How the results depend on the processing

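Both BCL2 probes were below control under all 15 alternatives. The probe filters, variance models, replicate block and t-test leave the change as it was. Leaving out an array cannot change its sign where the groups do not overlap. The direction was thus open only to the background correction and the scalings. The brighter passed the threshold in 6 and the dimmer in 8, with limma adjusted p from 0.00221 to 0.455 and from 0.00558 to 0.448 over the alternatives. The brighter (-0.454) no longer passed with scaling to detected probes (-0.439, adjusted p 0.0512), robust eBayes (-0.454, 0.0515), no probe filter (-0.454, 0.455), the replicate block (-0.454, 0.127), the methods' t-test (-0.454, 0.156) or with an array left out (-0.487 to -0.421). The dimmer (-0.451) did not pass without the filter (0.448), with the replicate block (0.129), the t-test (0.139) or an array left out (-0.478 to -0.424). Of the 15 probes, 2 were called lower; the number was 1 with scaling to detected probes or robust eBayes, 8 with spike-in scaling, and 0 without the filter, with the replicate block, the t-test or any array left out. No alternative called a probe of the 15 higher, but several called few or no probes of the whole array higher. Of the listed pathway genes 1 was called, but 4 with normexp, 22 with spike-in scaling, 8 with a trended prior, 2 with the filter on all 4 arrays, and 0 without the filter, with the replicate block, the t-test or an array left out. Over all tested probes, 233 were lower and 299 higher: 758 and 792 with normexp, 8990 and 516 with spike-in scaling, 1736 and 1347 with a trend, 0 and 0 without the filter (3627 at an unadjusted p under 0.05), with the replicate block (4400) or the t-test (2231 lower and 1884 higher unadjusted), and 0 to 0 lower and 0 to 8 higher with an array left out. The labels do not say whether the replicate numbers pair the samples, and why calls were lost with the block was not tested. The pro-survival median (-0.058) moved to -0.0444 with quantile normalization, -0.0431 with detected probes and -0.245 with spike-in scaling, and the pro-death median (-0.081) to -0.0695, -0.0661, -0.268, and -0.0535 with the mean of a gene's probes. BBC3 reversed with spike-in scaling (-0.139), BID with normexp (-0.0116), spike-in scaling (-0.150) and without mimic replicate 2 (-0.0406 to 0.113 with any array left out), and MCL1 with spike-in scaling (-0.169), without mimic replicate 2 (-0.0292) and without control replicate 2 (-0.00709), with 0.0644 the highest value with an array left out. The cause of these differences was not tested. A block for slide or scan was not run, since there was 1 of each. Dim probes limit what could be seen: the second BAX probe and 2 of BCL2L11 had replicates up to 1.34 apart.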

Other observations

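Of the 2 probes of ANO1, a chloride channel that marks gastrointestinal stromal tumors, the dimmer differed by 0.47 (limma adjusted p = 0.0533) and the brighter by -0.07. All 3 probes of KIT, the receptor tyrosine kinase that drives most of these tumors, were below control, at -0.33, -0.14 and -0.06, and none passed the threshold (limma adjusted p = 0.0512, 0.161 and 0.674).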
